A study of Homo sapiens with 4 samples.

Results

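K562 cells given N,N-dimethyldoxorubicin (diMe-Doxo) had more ATAC-seq signal than untreated cells at 52784 listed regions, which are described here. They are all entries of the list deposited for diMe-Doxo over control, out of 100205 distinct regions listed for any of 3 anthracyclines. In ATAC-seq, a transposase inserts sequencing adapters where DNA is not covered by nucleosomes. K562 is an established human leukaemia cell line. The tested cells received diMe-Doxo at 10 µM for 4 h, and the control cells received no drug. Cells given doxorubicin (Doxo, 10 µM, 4 h) are used for side-by-side values and for a test against diMe-Doxo at regions in both lists. Cells given aclarubicin (Acla, 20 µM, 4 h) are used only for side-by-side values. Each group is 1 GEO sample with 2 libraries, and all 3 lists use the same 2 control libraries. Nothing in the labels ties the paired libraries to independent cultures, so the spread between them may be technical, and p-values measure only that spread.

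Anthracyclines have a flat ring system that slips between DNA base pairs and a sugar that lies in the minor groove. Doxorubicin is known to trap topoisomerase II on DNA, which leaves double-strand breaks, and to evict histones from chromatin. diMe-Doxo differs from doxorubicin by methylation of the amine on that sugar, and is known as a variant that evicts histones while causing few breaks. The lists name no gene, and no annotation of their build was used here. Regions are therefore identified by their GRCh37 position, and marker genes of the cell line were not checked.

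The gain rested on deep treated and very shallow control counts. Inside the listed regions the diMe-Doxo libraries held 4296440 and 3534855 reads, and the control libraries 137456 and 120492. The median region had 61 and 51 reads with diMe-Doxo, against 1 and 1 read in the controls. In the deposited signal 1 read counted as 0.446 and 0.460 normalized reads in the diMe-Doxo libraries and as 2.41 and 2.03 in the controls. A control read thus weighed 4.89 times as much as a diMe-Doxo read, a scaling set by the authors on which every fold below depends.

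Most regions gained severalfold, and few gained very much. The median region had 27.2 and 23.5 normalized reads in the diMe-Doxo libraries, against 2.41 and 2.03 in the controls, and the authors' log2 fold had a median of 2.52 and quartiles of 2.17 and 3.01. Taken alone, diMe-Doxo library 1 gave a median of 2.64 and library 2 a median of 2.42. A log2 fold of at least 3 was reached at 13498 regions (25.6%), of at least 4 at 2120 (4.02%) and of at least 5 at 149. The list was chosen by this contrast, with a highest deposited p of 0.05, a highest deposited false discovery rate of 0.0916 and a lowest log2 fold of 1.5. Regions beyond these limits were not analysed here. Both diMe-Doxo libraries lay above both controls at 100% of the regions, and edgeR's quasi-likelihood test on recovered reads called 98.1% of them (51765, adjusted p at most 0.05). Without diMe-Doxo library 1 the calls numbered 28947, and without diMe-Doxo library 2 they numbered 32186. Neither share is a result, since the same libraries chose the list.

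The 5 regions with the lowest deposited false discovery rate (FDR) were wide and nearly empty in the controls. The leading region, on chromosome 5 at 170736204-170738871, had 245 and 235 normalized reads with diMe-Doxo, against 4.81 and 4.05 in the controls. On chromosome X at 125298514-125301162 the values were 209 and 197 with diMe-Doxo, against 4.81 and 2.03. On chromosome 8 at 114644649-114646469 they were 195 and 175, against 2.41 and 4.05. The diMe-Doxo libraries lay within 1.11 times of each other at these 3 regions, and no control library held more than 2 reads. Next came a region on chromosome X at 21391821-21394052, with 192 and 163 normalized reads against 2.41 and 4.05, and one on chromosome 10 at 82841853-82844087, with 142 and 127 against 2.41 and 2.03. Authors' log2 folds of the 5 ran from 5.76 to 5.92. With so few control reads a single read moves them: without control library 1 the region at 125298514 of chromosome X had a log2 fold of 6.64 in place of 5.89. Of the 5, 4 stood alone, with no other listed region within 10 kb, while the leading region belonged to a chain of 8.

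**Figure D1:**
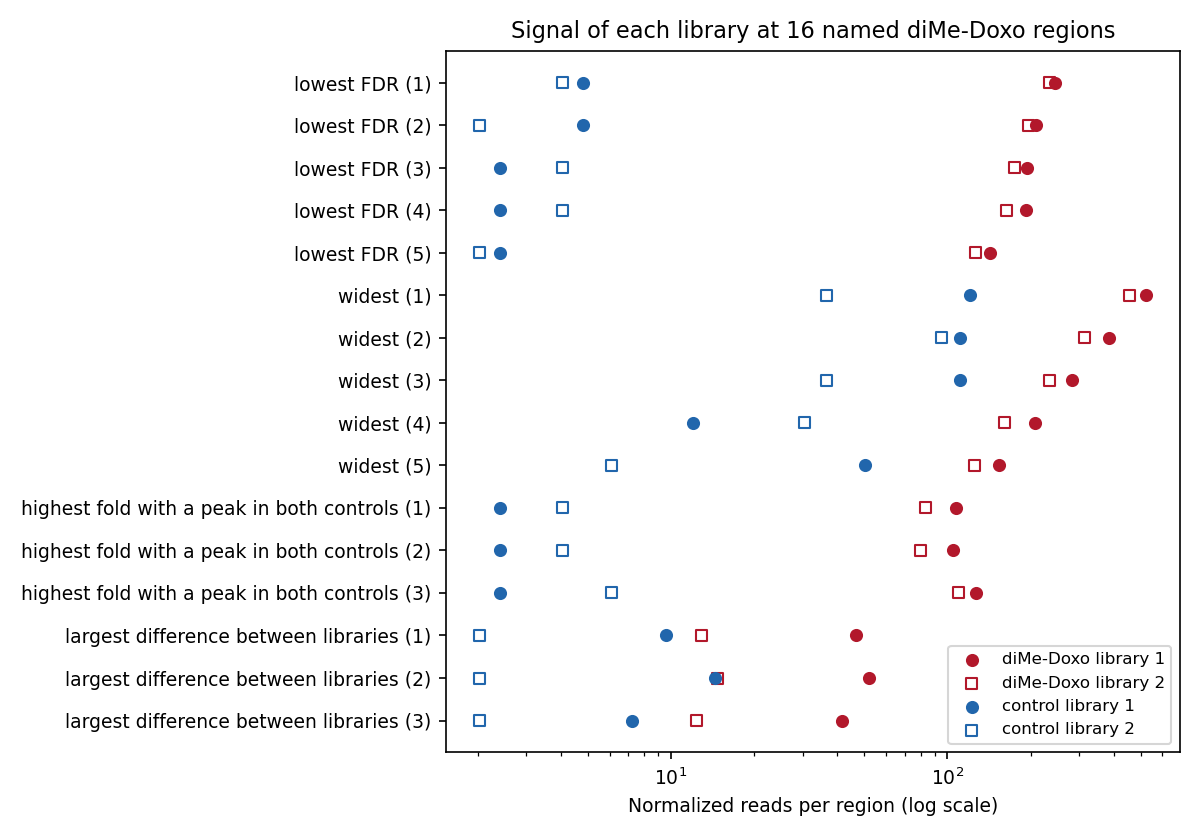
Normalized reads (log scale) in each of the 2 diMe-Doxo (red) and 2 control (blue) libraries at 16 named regions, numbered within each group in the order in which the text gives them. The lowest-FDR regions sit between 127 and 245 with diMe-Doxo and at 4.81 or less in the controls, and at the last 3 regions diMe-Doxo library 2 lies far below library 1.

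Regions with more signal in untreated cells had smaller folds, which is built into the ratio. No control peak had been called at 46879 regions (88.8%), where the median authors' log2 fold was 2.54. It was 2.36 at the 4035 regions with a peak in 1 control library and 2.19 at the 1870 with a peak in both. Median signal rose the other way, with 66.5 and 56.1 normalized reads in the diMe-Doxo libraries at regions with 2 control peaks, against 25.9 and 22.1 at regions with none. The control values were 12.03 and 8.10 with 2 peaks, and 2.41 and 2.03 with none. Regions with 2 control peaks were also wider, with a median of 1485.5 bp, against 862 bp with none. Per kb their medians were 47.3 and 40.1 normalized reads with diMe-Doxo, against 31.3 and 26.9 at regions with none. Regions already open in untreated cells thus had more signal with the drug, per region and less markedly per kb, and a smaller fold. The difference in median log2 fold between regions with 2 control peaks and with none was -0.35, and -0.56 without control library 2.

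By control reads the medians fell in steps. The 17138 regions (32.5%) with 1 read in each control library, the lowest value present, had a median log2 fold of 2.82 and none below 2.13. At 684 regions with 20 or more control reads in all, the median was 2.10. Both diMe-Doxo libraries, taken alone, showed this order in the plot of gain by control reads. The files do not show whether a count of 0 was set to 1, on which the folds of the first class would depend.

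High folds over a called control peak were uncommon. Of the 1870 regions with a peak in both controls, 192 (10.3%) reached a log2 fold of 3, beside 25.6% of all listed regions. The highest such fold, 4.88, was on chromosome 2 at 240671841-240673783, with 107 and 83.7 normalized reads with diMe-Doxo, against 2.41 and 4.05 in the controls. On chromosome 3 at 188911978-188913645 the values were 104 and 80.0, against 2.41 and 4.05. On chromosome 3 at 26387881-26389730 they were 127 and 109, against 2.41 and 6.08. Control counts at these 3 regions were only 1 to 3 reads although a peak was marked in both controls, and without control library 2 the log2 fold of the last one was 5.61 in place of 4.80.

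**Figure D2:**
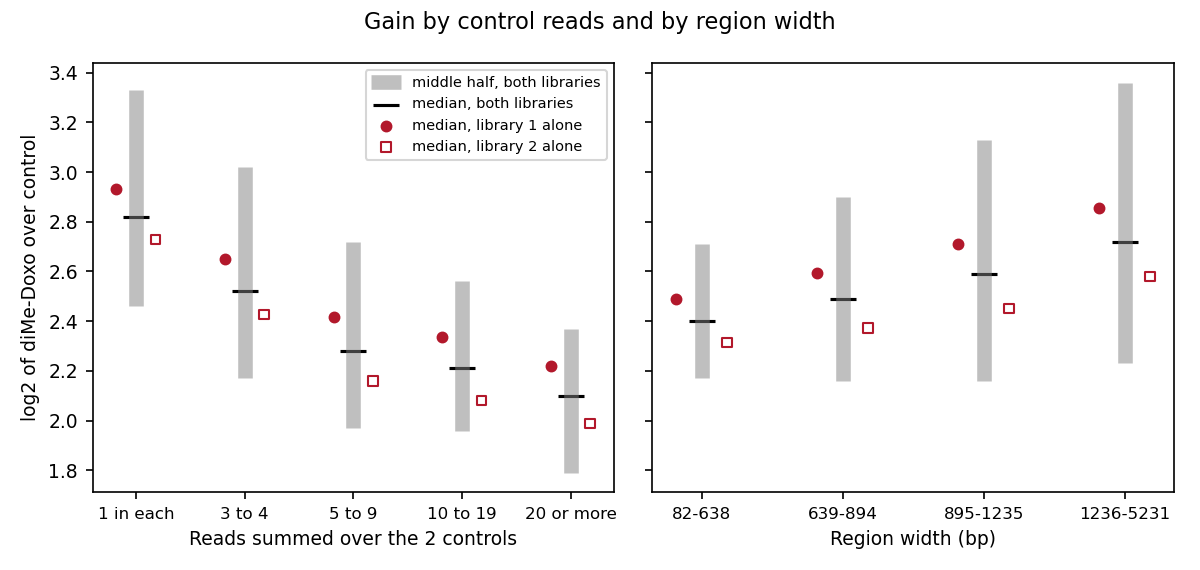
Log2 of diMe-Doxo over control by reads summed over the 2 control libraries (left) and by 4 equal classes of region width in bp (right); bars span the quartiles, dashes mark medians, and red symbols mark medians from 1 diMe-Doxo library alone. Medians fell from 2.82 to 2.10 as control reads rose, and rose from 2.40 to 2.72 with width.

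Wider regions had higher folds. Listed regions were 82 to 5231 bp wide, with a median of 894 bp. Of 4 equal classes by width, the narrowest (82 to 638 bp) had a median authors' log2 fold of 2.40, and the next 2 had medians of 2.49 and 2.59. The widest class (1236 to 5231 bp) had a median of 2.72, or 0.32 above the narrowest. This difference was 1.08 without control library 1 and 0.48 without control library 2, so its size depended on the control library used. Mean control reads rose with width as well, with 4.49 and 3.46 reads in the widest class, against 1.52 and 1.54 in the narrowest. Among regions with 1 read in each control the medians were 2.54, 2.82, 3.26 and 3.82 from narrow to wide, a difference of 1.28 in a subset chosen after seeing the data. The control value is constant in this subset, so the fold only restates the diMe-Doxo reads per region. Per kb its medians from narrow to wide were 30.8, 22.7, 22.8 and 23.7 in diMe-Doxo library 1. In library 2 they were 27.8, 19.5, 18.8 and 19.5. Over the whole list, normalized reads per kb followed no single direction with width. From narrow to wide their medians were 37.8, 29.4, 29.8 and 34.4 in diMe-Doxo library 1 and 33.9, 25.3, 24.9 and 28.3 in library 2.

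The 5 widest regions all had a called peak in at least 1 control library. The widest, 5231 bp on chromosome 4 at 100570438-100575669, had 525 and 457 normalized reads with diMe-Doxo, against 120 and 36.5 in the controls (authors' log2 fold 2.65). A region of 4884 bp on chromosome 8 at 56362283-56367167 had 386 and 313, against 111 and 95.2 (1.76). One of 4340 bp on chromosome 11 at 126303749-126308089 had 283 and 234, against 111 and 36.5 (1.81). All diMe-Doxo values exceeded all control values here, but control library 1 lay far above library 2 on chromosomes 4 and 11. Further wide regions lay on chromosome 2 at 129024718-129028948 (208 and 161, against 12.03 and 30.4) and on chromosome 21 at 44836854-44841056 (154 and 125, against 50.5 and 6.08). The log2 fold on chromosome 21 was 2.30 with both controls, 4.52 without control library 1 and 1.47 without control library 2. On chromosome 4 it was 3.75 without control library 1 and 2.03 without library 2, on chromosome 11 it was 2.83 and 1.22, and on chromosome 2 it was 3.94 without library 2.

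Gained regions were spread over every chromosome at unequal density. Over the span of all listed regions the list held 17.9 regions per Mb. Density was highest on chromosome 11 (25.2 per Mb), chromosome 7 (24.5) and chromosome 1 (23.9) and lowest on chromosome 22 (9.65), with a median of 15.1 over chromosomes 1 to 22 and X. Chromosomes 1, 2, 7 and 11 together held 18736 regions (35.5%) on 26.6% of the span. Only 2 regions lay on chromosome Y, which is left out of the ranges that follow. Over chromosomes 1 to 22 and X the gain varied little, with median authors' log2 folds from 2.42 on chromosome 22 to 2.67 on chromosome X. Among these chromosomes, regions on X were also the widest (median 1038 bp) and the most scattered, with 34.4% of them within 10 kb of another listed region, beside 66.7% on chromosome 1. K562 cells are aneuploid, and the part of copy number in these densities was not tested.

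**Figure D3:**
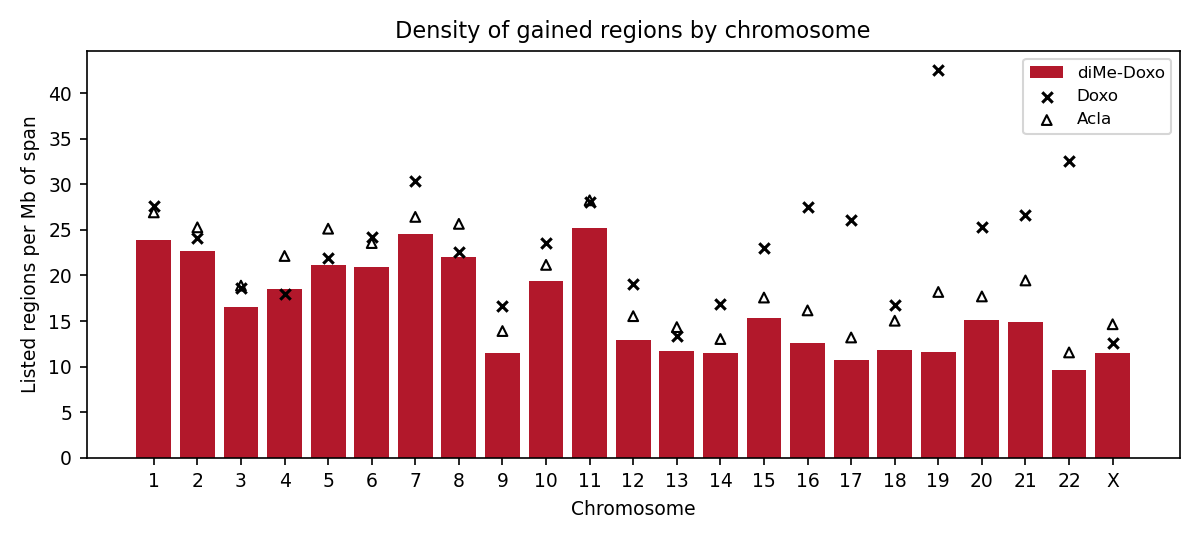
Listed regions per Mb of span on chromosomes 1 to 22 and X for diMe-Doxo (bars), with Doxo (crosses) and Acla (triangles) beside them. The diMe-Doxo density runs from 9.65 on chromosome 22 to 25.2 on chromosome 11, and the Doxo crosses stand far above the bars on chromosomes 19 and 22.

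Regions were denser toward chromosome ends, at nearly the same fold. An end here is the outermost listed position, which can lie short of the true end of the chromosome. Within 5 Mb of an end of the listed span lay 8709 regions, or 16.5% (Clopper-Pearson 95% interval 16.2 to 16.8, counting error only). These outermost parts made up 7.81% of the span without chromosome Y. Side by side, the share was 19.9% in the Doxo list and 13.5% in the Acla list, without a test between them. Within 2 Mb of an end the median log2 fold was 2.52, and over 50 Mb from an end it was 2.56. Normalized reads per kb were higher near the ends in all 4 libraries, with medians of 43.8 and 38.3 for diMe-Doxo within 2 Mb, against 5.50 and 4.40 in the controls. Over 50 Mb from an end they were 29.8 and 25.4 for diMe-Doxo, against 3.95 and 2.94 in the controls. Control medians per region were 2.41 and 2.03 in both classes. Median widths were 850.5 bp within 2 Mb and 927 bp over 50 Mb away, and the part of width was not tested. Control peaks had been called at 17.2% of regions within 2 Mb and at 8.95% over 50 Mb away.

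Many gained regions lay close to another, and single regions were still the most frequent class. Another listed region lay within 10 kb of 29526 of them (55.9%, 95% interval 55.5 to 56.4, counting error only), and the median distance to the nearest one was 7918 bp. In the Doxo list 64.5% had such a neighbour and in the Acla list 59.1%. Linking regions at gaps of at most 10 kb gave 9936 chains of 2 or more and left 23258 regions (44.1%) single, while chains of 2 to 4 held 40.3%. At an FDR of at most 0.01, which leaves fewer regions, 34.9% had a neighbour within 10 kb. Chains of at least 5 held 15.6% of diMe-Doxo regions, beside 28.3% of Doxo regions and 15.7% of Acla regions. There were 160 chains of at least 10 with diMe-Doxo, 545 with Doxo and 161 with Acla. These values stand side by side without a test, because list length and scaling differ between the drugs. Of the 2082 regions in diMe-Doxo chains of at least 10, 55.4% lay within 5 Mb of a chromosome end. Their median log2 fold was 2.63, beside 2.51 at single regions.

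Regions closer to another listed region had more signal per kb in treated and control libraries alike, at nearly the same fold. Regions within 1 kb of another had medians of 43.0 and 37.3 normalized reads per kb with diMe-Doxo, against 5.67 and 4.19 in the controls. Regions over 100 kb from any other had 24.97 and 20.99 with diMe-Doxo, against 3.46 and 2.71 in the controls. The median authors' log2 fold was 2.54 in the first class and 2.49 in the second, and 2.52 in each class between them. Crowded regions were narrower, with median widths of 756 bp within 1 kb of another and 1013 bp over 100 kb away. The listed folds of neighbouring regions hardly resembled each other. Across 4465 pairs at most 1 kb apart the log2 folds differed by a median of 0.54 (Pearson's r 0.07, a description over pairs that share libraries). Across 6820 pairs over 100 kb apart the median difference was 0.53 (r 0.05). These folds rest on few control reads, with 1 read in each control at 32.5% of regions, and none is below 1.5. The part of counting error and of that limit in these values was not tested, so they do not show how alike neighbours are in true gain.

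**Figure D4:**
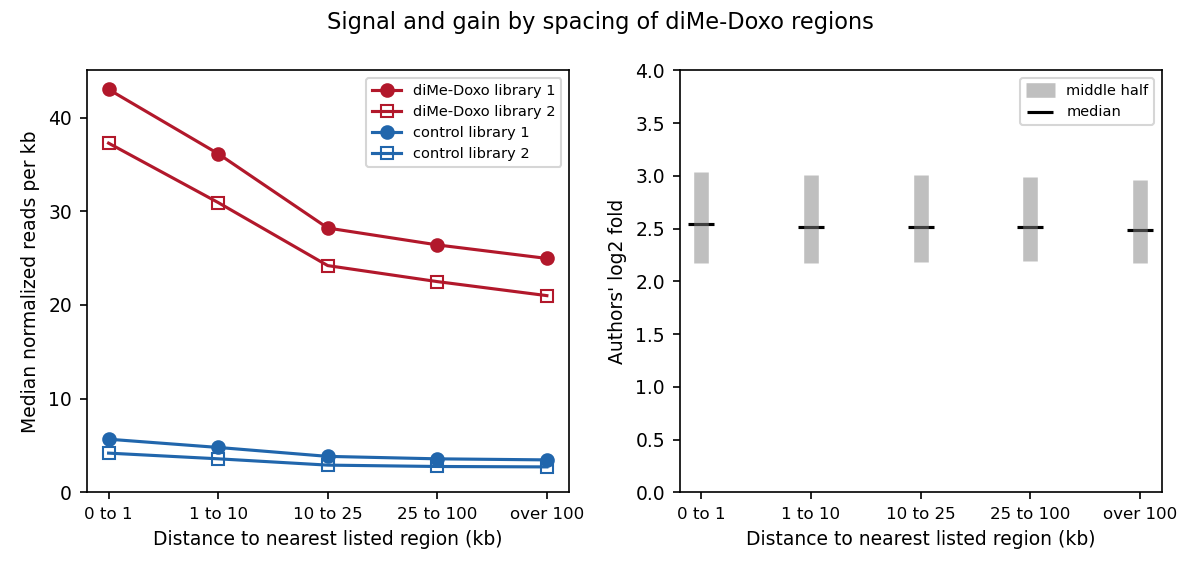
Median normalized reads per kb in each of the 4 libraries (left) and the authors' log2 fold (right; bars span the quartiles, dashes mark medians), by distance in kb to the nearest listed diMe-Doxo region. Signal per kb falls from 43.0 and 37.3 to 24.97 and 20.99 in the diMe-Doxo libraries and also falls in the controls, while the median fold stays between 2.49 and 2.54. Per region the control medians are 2.41 and 2.03, or 1 read, in every class.

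The 3 chains with most regions held regions of widely differing fold. The chain with most regions, 41 over 154 kb on chromosome 8 at 143209335-143363210, summed to 2383 and 2021 normalized reads with diMe-Doxo, against 282 and 239 in the controls. Its regions had log2 folds from 1.76 to 4.43, with a median of 3.09. A chain of 34 regions on chromosome 1 at 2770644-2907164 summed to 2240 and 2037, against 310 and 217, with a median log2 fold of 3.12. A chain of 32 on chromosome 12 at 124798907-124947155 summed to 1294 and 1186, against 205 and 203, with a median of 2.53. These 3 chains lay 2.86, 1.98 and 8.87 Mb from the nearest end of the span. In the same intervals the Doxo list had 22, 24 and 58 regions and the Acla list 35, 33 and 27.

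Windows of 1 Mb showed the same unevenness. Of the list, 25% lay in the 194 fullest of 2786 occupied windows, and the median window held 14 regions. The fullest windows were on chromosome 8 at 143-144 Mb (162 regions, covering 13.6% of the window), chromosome 1 at 4-5 Mb (151) and chromosome 7 at 157-158 Mb (136). Their median log2 folds were 2.73, 2.64 and 2.58. In the 15 windows with 100 or more regions the median fold was 2.60, beside 2.49 in the 414 windows with 1 to 4. Among 949 windows with at least 20 regions the median fold had quartiles of 2.42 and 2.62.

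The 2 diMe-Doxo libraries ranked the regions alike but differed in level. Pearson's r of their log2 signals was 0.906 over 52784 regions, a description of points that share both libraries. The list was chosen by a contrast that uses both libraries, and their summed signal also rose with region width (r 0.67 on log2 scales). The part of that choice and of width in the agreement was not tested. Library 1 was the higher at 74.8% of regions, with a median ratio of 1.17 (log2 0.23, SD over regions 0.40). It was the higher by median on all 23 chromosomes compared, from log2 0.21 on chromosome 7 to 0.28 on chromosome 17, and in 946 of 949 windows with at least 20 regions. The offset was 0.27 in the widest class of regions and 0.16 in the narrowest. The libraries were within 2-fold of each other at 96.6% of regions. Of the 1790 beyond that, 1610 were higher in library 1.

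Disagreement narrowed with depth. The SD of the log2 ratio between the libraries was 0.52 at regions with a mean under 25 reads, where counting error alone gives 0.43, and 0.16 at regions with 200 or more, where it gives 0.13. Peaks had been called in both diMe-Doxo libraries at 70.1% of regions, in 1 at 23.8% and in neither at 6.09%. Where library 1 alone had a peak the log2 ratio had a median of 0.50, and where library 2 alone had one it was -0.10. Among regions at or above the median signal, the 3 with the largest difference between the libraries were all weaker in library 2. On chromosome X at 4467576-4468723 the diMe-Doxo libraries had 46.9 and 12.9 normalized reads, against 9.62 and 2.03 in the controls. On chromosome X at 149481006-149482025 they had 52.2 and 14.7, against 14.4 and 2.03, and on chromosome 8 at 132668444-132669570 they had 41.5 and 12.4, against 7.22 and 2.03. At the second of these, library 2 barely exceeded control library 1, and without diMe-Doxo library 1 the log2 folds of the 3 were 1.14, 0.84 and 1.42 in place of 2.36, 2.02 and 2.54. Without control library 1 they were 3.88, 4.04 and 3.73, without control library 2 they were 1.63, 1.21 and 1.90, and without diMe-Doxo library 2 they were 3.01, 2.66 and 3.17.

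**Figure D5:**
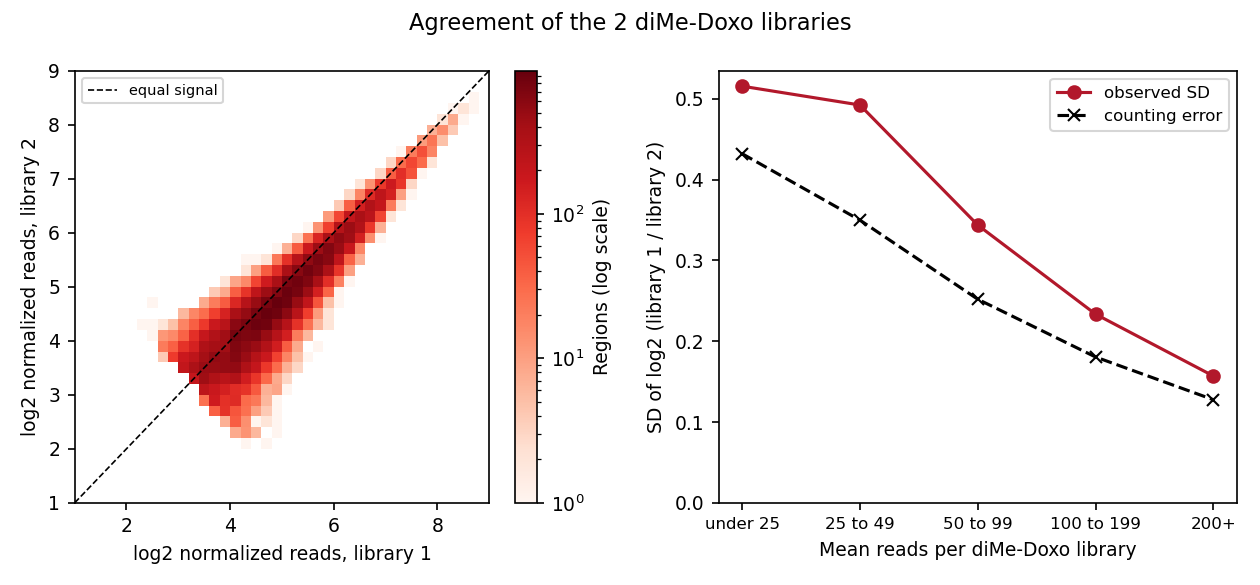
Left, regions counted by log2 normalized reads in diMe-Doxo library 1 and library 2, with a dashed line at equal signal; right, SD over regions of the log2 ratio of the libraries by mean reads per library, with the SD that counting error alone gives. The cloud sits slightly below the line (median log2 ratio 0.23), and the SD falls from 0.52 to 0.16 as reads rise.

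At regions in both lists, diMe-Doxo signal was more often called lower than higher against doxorubicin at the same dose and time. Regions in only 1 of these lists were not tested. Each list was chosen with the same libraries, so the shares below hold for the shared regions only. Doxo differs from diMe-Doxo by lacking the methyl groups on the sugar amine, and 1 pair of drugs was tested. At the 33140 regions in both lists (62.8% of the diMe-Doxo list), edgeR's quasi-likelihood test on recovered reads called 900 higher with diMe-Doxo (2.72%) and 9583 lower (28.9%), at an adjusted p of at most 0.05. With TMM scaling it called 3508 higher (10.6%) and 7831 lower (23.6%). The median log2 difference over all these regions was -0.28 on the authors' scaling and 0.05 under TMM, and the classes below are read against it. DESeq2 called 265 higher and 8197 lower. Without diMe-Doxo library 1 the higher calls numbered 158, and without library 2 they numbered 514.

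Regions near chromosome ends and regions with control peaks were lower with diMe-Doxo more often than the rest. Within 5 Mb of an end 40.3% of 6139 regions were called lower, beside 26.3% of 27001 elsewhere, or 34.8% beside 21.1% with TMM. With a peak in both controls 47.8% of 1347 were called lower, beside 27.3% of 29012 with none, or 40.5% beside 22.2% with TMM. The median log2 difference at regions with 2 control peaks was -0.56, or -0.23 with TMM. Both kinds of region also carried more reads in the whole list. The median was 149 and 122 diMe-Doxo reads with 2 control peaks and 58 and 48 with none, and it was 77 and 64 within 2 Mb of an end and 59 and 48 over 50 Mb away, and the part of read number in these shares was not tested. By spacing the shares were close, with 29.3% lower at regions within 10 kb of another and 28.5% at the rest, or 24.1% and 23.01% with TMM. The widest class had more calls in both directions than the narrowest, with 4.93% higher and 34.9% lower, against 0.445% and 29.3%. With TMM the shares were 17.6% and 29.6%, against 2.98% and 23.1%. Lower calls did not rise steadily with width, at 24.1% and 25.5% in the classes between. In the whole list the widest class had medians of 121 and 97 diMe-Doxo reads and the narrowest 38 and 33, and the part of read number was not tested here either.

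After scaling, the named regions mostly had less signal with diMe-Doxo than with Doxo. Of the 5 with the lowest FDR, 4 were called lower, the leading one with 549 and 511 reads with diMe-Doxo, against 727 and 808 with Doxo (log2 difference -1.82, 95% interval -2.22 to -1.42, edgeR adjusted p 6.02e-18). The exception, on chromosome 10, had a log2 difference of -0.26 (-0.69 to 0.17, edgeR adjusted p 0.427). All 5 of the widest were called lower, with log2 differences from -3.01 to -0.60, or from -2.68 to -0.27 with TMM. These calls rest on the scaling as well as on the reads. The widest region had 1176 and 993 unscaled reads with diMe-Doxo, against 616 and 732 with Doxo, and a log2 difference of -0.60. Of the 3 with the highest fold over control peaks, the one on chromosome 2 was called higher (0.74, 0.23 to 1.25, edgeR adjusted p 0.0155). The other 2, on chromosome 3, had differences of 0.18 (-0.30 to 0.67) and 0.14 (-0.31 to 0.59) with edgeR adjusted p of 0.663 and 0.738, and were called higher with TMM at adjusted p of 0.0475 and 0.0181. The 3 regions with discordant libraries were not in the Doxo list.

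Regions with the lowest adjusted p in each direction, ranked after the fit, differed strongly. On chromosome 8 at 118488620-118490969 diMe-Doxo gave 188 and 134 reads, against 20 and 6 with Doxo (log2 difference 2.33 ± 0.36 SE, edgeR adjusted p 6.53e-10). The difference there was 3.45 without Doxo library 1 and 1.71 without Doxo library 2. On chromosome 9 at 137644290-137645336 it gave 121 and 123, against 13 and 9 (2.18 ± 0.39, edgeR adjusted p 1.97e-07), and on chromosome 7 at 121861355-121863267 it gave 176 and 141, against 21 and 15 (1.85 ± 0.34, edgeR adjusted p 2.99e-07). In the other direction, chromosome 9 at 34370925-34373077 had 54 and 48 reads with diMe-Doxo, against 346 and 419 with Doxo (-4.19 ± 0.25, edgeR adjusted p 6.70e-61). A further 2 regions led this direction, on chromosome 4 at 141208753-141211247 and chromosome 12 at 29943974-29947090, with log2 differences of -4.28 and -4.37. Each of these 6 held 1 or 2 reads in each control library and no control peak, and each kept its direction and call under TMM, DESeq2, filterByExpr and each left-out library. Their smallest adjusted p depended on the fit, for example 5.65e-13 with TMM on chromosomes 4 and 12, beside 2.87e-70 with the authors' factors.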

How the data were processed

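The submitters' processing notes name GRCh37 and DiffBind; the aligner, the peak caller, the normalization and all versions were not given in the sources used here. Lacking a header, the lists had their column meanings read from the values. The authors supplied for each region log2 group means, a log2 fold, a p-value and an FDR. Signal values deposited per library behave as whole reads multiplied by a constant, and reads were recovered by dividing by the spacing of neighbouring values (100% whole within 0.1 reads). Total library depth is unknown. Clopper-Pearson intervals cover counting error only and take regions as independent. Regions lie in chains and nearness is mutual, so these intervals can be too narrow. Start positions are printed as deposited, without knowledge of whether they count from 0 or 1. Control reads were identical at all 33140 regions shared by the diMe-Doxo and Doxo lists.

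Distances run between region edges, and chromosome ends are the outermost listed positions of any list, which can lie short of the true ends. Named regions were the 5 with the lowest FDR, the 5 widest and the 3 with the highest fold and 2 control peaks. Also named were the 3 with the largest difference between libraries at or above the median signal. The 3 chains with most regions, the 3 fullest windows and the 3 regions with the lowest adjusted p in each direction against Doxo completed the set. The members, classes and rules were chosen with earlier results of these data known. diMe-Doxo and Doxo were compared with the quasi-likelihood test of edgeR, adjusted by Benjamini-Hochberg over all shared regions and checked on simulated data. The authors' factors were rescaled between the lists by means of the control libraries, which matched only approximately. In control libraries 1 and 2 a read counted as 2.41 and 2.03 in the diMe-Doxo list. In the Doxo list it counted as 1.44 and 1.39, so no single rescaling matches both libraries exactly. The part of this mismatch in the log2 differences was not tested. Intervals of log2 differences follow from the F statistic of the edgeR test and include the spread between libraries. Alternatives were TMM, DESeq2, filterByExpr, other limits, and leaving out each library. Planned gene lists and cell markers were not used, since no annotation of GRCh37 was used here. Versions were edgeR 4.0.16 and DESeq2 1.42.0 in R 4.3.3, and scipy 1.17.1, pandas 2.3.3 and numpy 2.4.6 in Python 3.11.15, with figures from matplotlib 3.10.9.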

Additional observations from a re-analysis of the deposited data

How the results depend on the processing

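The median log2 difference between diMe-Doxo and Doxo changed sign, at -0.28 on the authors' scaling and 0.05 under TMM. The median log2 fold of 2.52 was 2.24 as log2(signal + 1) and 3.17 at an FDR of at most 0.01, and lay between 2.42 and 3 with 1 library left out. The difference in median log2 fold between regions with 2 control peaks and with none, -0.35, was -0.17 as log2(signal + 1) and -0.50 at an FDR of at most 0.01, and lay between -0.56 and -0.37 with 1 library left out. The difference between the widest and narrowest width class, 0.32, was 0.52 as log2(signal + 1), 0.44 above 1 read in at least 1 control and 0.43 with no control peak. It lay between 0.27 and 1.08 with 1 library left out. With 1 read in each control it was 1.28, a setting chosen after seeing the data, in which the control value is constant. The share of regions near chromosome ends, 16.5%, was 7.18% at 2 Mb, 27.8% at 10 Mb, 18.2% at an FDR of at most 0.01 and 15.6% with no control peak. The share with a neighbour, 55.9%, was 38.1% at 5 kb, 77.7% at 25 kb, 34.9% at an FDR of at most 0.01, which leaves fewer regions, and 51.8% with no control peak. The median absolute log2 ratio of the diMe-Doxo libraries, 0.30, was 0.23 at equal total signal, 0.26 at an FDR of at most 0.01 and 0.27 for the stronger regions.

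Against Doxo, the 900 higher calls became 3508 with TMM and 265 with DESeq2 (4498 adjusted p not given), and 158 to 815 with 1 library left out. The 9583 lower calls were 7831 with TMM, 8197 with DESeq2 and 7532 to 9125 with 1 library left out. filterByExpr removed no region. edgeR calls over control, 51765, were 28947 to 49158 with 1 library left out, where the lone library is assumed to vary like the other group, and 0 with TMM, which centres a list made only of gained regions. No paired analysis was possible because each group is 1 GEO sample and the libraries carry no number that the labels give. Control depth limits all folds, since 32.5% of regions had 1 read in each control.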

Other observations

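The 2 control libraries differed from each other in a way that followed the chromosome. Summed over the listed regions, control library 1 held more reads than library 2 on 16 of 23 chromosomes and fewer on 7. The log2 ratio of library 1 to library 2 was highest on chromosome X (0.46), chromosome 5 (0.39) and chromosome 4 (0.37), and lowest on chromosome 17 (-0.40), chromosome 19 (-0.34) and chromosome 22 (-0.23). Over the same chromosomes the log2 ratio of the 2 diMe-Doxo libraries stayed between 0.21 and 0.28. The control libraries also parted with signal. At regions with a mean of 200 or more diMe-Doxo reads they averaged 9.60 and 5.72 reads, and at regions with 25 to 49 they averaged 1.39 and 1.41. Across all listed regions Pearson's r of the log2 control signals was -0.17, beside 0.906 for the diMe-Doxo libraries. The list was itself chosen by a contrast that uses the control values, and the part of that choice in this r was not tested.

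No peak had been called in any of the 4 libraries at 3035 diMe-Doxo regions. At the same positions, 2086 of these regions were in the Doxo list and 2722 in the Acla list, with 2987 (98.4%) in either. The share in either list over all diMe-Doxo regions was not computed. Whether peaks of the other drugs placed these regions was not tested. The 3035 regions had a median width of 658 bp and a median log2 fold of 2.38, beside 894 bp and 2.52 over the whole list. Their median signal was 17.4 and 14.7 normalized reads with diMe-Doxo, against 2.41 and 2.03 in the controls. Of them, 23.1% lay within 5 Mb of a chromosome end, beside 16.5% of all listed regions.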
